A study of Mus musculus with 24 samples.

Results

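Binding of 3 transcriptional regulators (TRs) was read at 8 voltage-gated sodium channel genes of the mouse, Scn1a, Scn2a, Scn3a, Scn8a, Scn9a, Scn2b, Scn3b, and Scn4b, out of 21951 protein-coding genes in the annotation. A peak belonged to a gene if it overlapped the gene body (GENCODE vM21, GRCm38) or the 20 kb on either side. By this rule 147 of the 314954 peaks in 6 lists lay at these genes. The genes were chosen by their peaks in these same lists, so peak numbers and heights at them are a description and carry no test. The samples came from wild-type (WT) mouse cortex of the embryonic stages E15.5 and E18.5. Chromatin immunoprecipitation sequencing (ChIP-seq) was done for ARID1B, FOXP1, and TCF7L2, and each TR and stage had 2 ChIP replicates and 2 replicates of input chromatin, 24 libraries in all. The labels write TCF4, an alias of TCF7L2, for the last of these, and TCF7L2 is the antibody target that the methods name. By the methods, peaks were called on each replicate and then again on the merged reads. Each TR and stage has 1 list, which is filed under replicate 1 with no replicate in its name. It was read as the list of merged reads, which the files do not settle. With 1 list each, no difference between lists can be set against the spread between replicates.

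Voltage-gated sodium channels open when a membrane depolarizes and carry the inward current that starts and propagates the action potential. A channel has 1 large alpha subunit, which forms the pore, and smaller beta subunits, which tune gating and hold the channel in the membrane. Scn1a, Scn2a, Scn3a, Scn8a, and Scn9a encode alpha subunits, and Scn2b, Scn3b, and Scn4b encode beta subunits. Scn2a and Scn3a are the alpha subunits of the immature forebrain, Scn8a takes over at the axon initial segment as neurons mature, Scn1a is the main alpha subunit of many inhibitory neurons, and Scn9a is best known from peripheral sensory neurons. ARID1B belongs to the BAF complex, which remodels chromatin, FOXP1 is a forkhead protein, and TCF7L2 is a high-mobility-group protein at the end of the Wnt pathway.

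Fold enrichment in the lists is the ratio of ChIP reads over a summit to the background, scaled to the smaller library and with 1 added to both. The background is 1 value for each list, the same at every place, since the local background was switched off in the peak calling, so a fold is not relative to input at the same place. By this scaling 1 ChIP read counted as 0.561 for FOXP1 at E18.5, 0.775 for TCF7L2 and 0.856 for ARID1B at E15.5, and 1 in the other lists, and the reads printed here are unscaled. Fold enrichment and p-value of every peak gave back the number of ChIP reads behind each summit, and a 95% Poisson interval was put on each value. These intervals cover counting error only. Library sizes were inferred from that background, the MACS2 genome size for mouse and reads of 200 bp, not counted. The smaller library of each pair came to 26.3 M reads in the FOXP1 pair of E18.5 and 57.3 to 80.7 M in the others. The lists had 24872 (FOXP1, E18.5) to 71411 peaks (ARID1B, E15.5) on the main chromosomes, so a missing peak in the FOXP1 list of E18.5 was read from the shallowest data. The cortex was taken whole, and fewer cells with a bound site cannot be told apart from weaker binding per cell.

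Some stretches of sequence carry what follows, and they are given 5′ to 3′ on the strand of the gene, in GRCm38, with CpG dinucleotides in capitals. They show the inner promoter of Scn2a, where all 3 TRs met, and the FOXP1 summit of E15.5 beside it. The promoter of Scn3b is for comparison. The last stretch is a coding exon of Scn8a with peaks in all 6 lists. In the Scn8a stretch the longest run of capitals also holds the only match, with at most 2 mismatches, to CAGCACC and GGACAG, both parts of the RE1 element, the site of the neuronal repressor REST.
Scn2a, bases before the inner start sites, chr2:65668486-65668685, plus strand: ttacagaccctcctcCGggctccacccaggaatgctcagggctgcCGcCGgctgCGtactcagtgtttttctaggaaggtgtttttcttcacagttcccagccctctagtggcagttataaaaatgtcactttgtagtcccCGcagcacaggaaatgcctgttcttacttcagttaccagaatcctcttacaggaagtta
Scn2a, around the FOXP1 summit of E15.5, chr2:65669663-65669862, plus strand: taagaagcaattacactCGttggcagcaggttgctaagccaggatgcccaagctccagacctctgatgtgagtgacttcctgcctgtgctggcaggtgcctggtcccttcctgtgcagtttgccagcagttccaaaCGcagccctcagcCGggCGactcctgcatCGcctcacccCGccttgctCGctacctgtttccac
Scn3b, bases before the first start, chr9:40269017-40269216, plus strand: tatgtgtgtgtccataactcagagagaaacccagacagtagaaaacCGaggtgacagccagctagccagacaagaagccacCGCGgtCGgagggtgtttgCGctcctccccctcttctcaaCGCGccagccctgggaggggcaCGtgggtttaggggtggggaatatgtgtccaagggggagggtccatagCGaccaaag
Scn8a, coding exon with peaks in 6 lists, chr15:100983876-100984075, plus strand: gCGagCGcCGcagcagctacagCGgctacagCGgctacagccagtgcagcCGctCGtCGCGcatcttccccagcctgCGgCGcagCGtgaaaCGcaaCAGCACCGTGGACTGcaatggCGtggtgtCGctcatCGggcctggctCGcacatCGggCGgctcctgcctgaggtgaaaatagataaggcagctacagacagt

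The stretches differed most in CpG content. The Scn8a exon held 20 CpG in 200 bases, and its observed-to-expected CpG ratio was 0.962. The inner promoter of Scn2a had 5 CpG (ratio 0.408), the FOXP1 summit beside it 7 (0.414), and the Scn3b promoter 9 (0.535). Neither TGTTTAC, the core of the forkhead motif, nor CTTTGAT, the core of the TCF/LEF motif, was found on either strand in any of the 4 stretches.

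Across the 8 genes, ARID1B had 32 peaks at E15.5 and 31 at E18.5, FOXP1 had 33 and 14, and TCF7L2 had 13 and 24. FOXP1 peaks were thus fewer at E18.5 and TCF7L2 peaks more numerous, in the same direction as the lengths of the lists, in which FOXP1 went from 64059 to 24872 peaks and TCF7L2 from 32992 to 53173. With only the 24872 strongest peaks kept in each list, the direction for FOXP1 turned, from 12 peaks at the earlier stage to 14 at the later one, and TCF7L2 had 8 and 10. The windows spanned 1.10 Mb in all. The median of the 8 windows was lower than that of genes in general, at 2.66 ARID1B peaks per 100 kb at E15.5 against 3.18 over all protein-coding genes, 2.67 against 3.30 for FOXP1, and 1.43 against 1.99 for TCF7L2. At E18.5 the medians were 2.26 against 3.02 for ARID1B, 1.70 against 1.79 for FOXP1, and 2.08 against 2.68 for TCF7L2. This order of the medians held in all 6 lists, although the sodium channel windows, of 52289 to 216081 bp, are not matched in length to the other genes. Single members went the other way. Scn8a was denser than 60.3% to 74.5% of protein-coding genes over the 6 lists, and Scn2b was denser than 74.2% to 93.3% in all lists but TCF7L2 at E15.5 (48.6%). Scn8a held the most peaks, 62 over the 6 lists, followed by Scn2b with 23, Scn1a with 20, Scn2a with 18, Scn4b with 14, Scn3b and Scn9a with 9 each, and Scn3a with 6. The windows of Scn2b and Scn4b overlap, and peaks in both are counted once for each gene here.

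**Figure D1:**
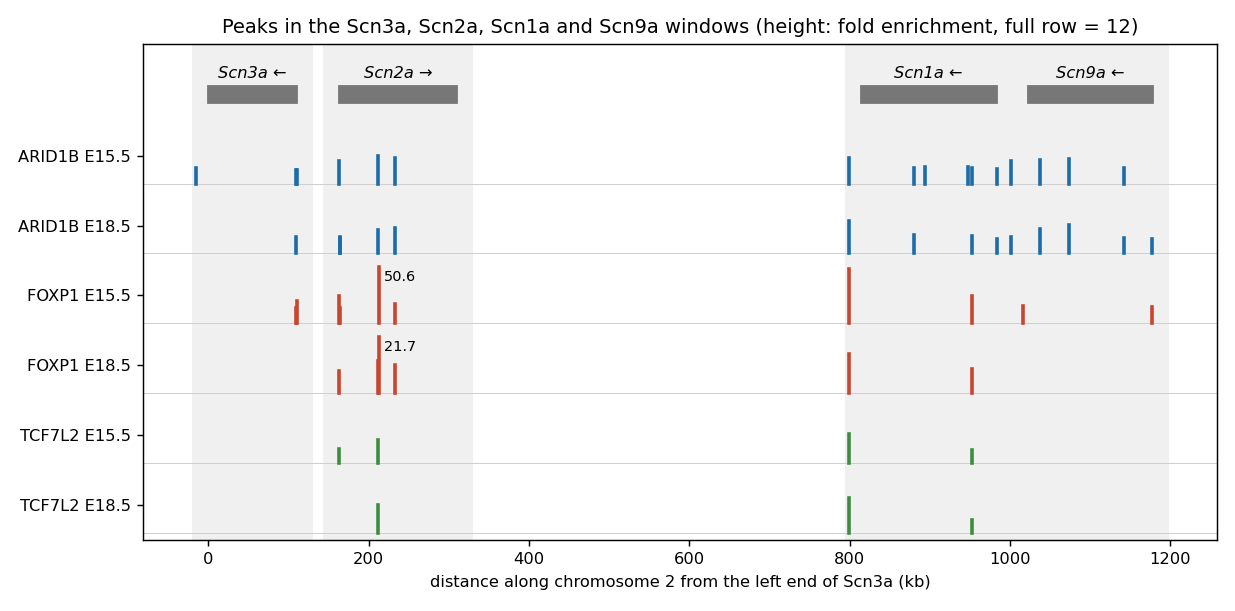
Peaks of the 6 lists in the windows (gray, gene body with 20 kb on each side) of the 4 sodium channel genes on chromosome 2. The x axis is the distance in kb from the left end of Scn3a, dark bars are gene bodies with the direction of transcription, and each colored line is a peak whose height is its fold enrichment, capped at 12. The FOXP1 peaks of Scn2a exceed the scale at 50.6 and 21.7, Scn9a has ARID1B peaks and 2 FOXP1 peaks, and TCF7L2 has no peak at Scn3a or Scn9a.

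A promoter was taken as the 2000 bp upstream of any annotated transcription start site (TSS) of a gene. ARID1B at E15.5 had a promoter peak at 7 of the 8 genes, all but Scn9a, where 58.8% of protein-coding genes had one. FOXP1 at E15.5 also had 7, all but Scn4b (61.8% of all genes), and TCF7L2 at E15.5 had 4, at Scn1a, Scn2a, Scn8a, and Scn3b (57.3%). At E18.5 each TR had 5 of the 8, with ARID1B lacking Scn3a, Scn2b, and Scn4b (57.3% of all genes), FOXP1 lacking Scn3a, Scn9a, and Scn4b (55%), and TCF7L2 lacking Scn1a, Scn3a, and Scn9a (61.2%). Scn2a, Scn8a, and Scn3b had promoter peaks in all 6 lists, 3 of 8, where 51.8% of protein-coding genes had. The 7 of 8 for ARID1B and FOXP1 at E15.5 lay above the background, and the other counts were near it. Several of the peaks were low: with only the 24872 strongest peaks kept in each list, the ARID1B counts were 1 of 8 (E15.5) and 2 of 8 (E18.5), when 40.4% and 39.9% of all protein-coding genes had such a peak. With only peaks of −log10 p of at least 15, TCF7L2 at E15.5 had 1 of 8 (44.6% of all genes) and FOXP1 at E18.5 had 1 of 8 (41.7%). With 500 bp downstream of the start added to the promoter, ARID1B at E18.5 had 8 of 8 (59.1%).

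The promoter peaks of the sodium channel genes were lower than those of genes in general. Their median fold enrichment was 3.30 for ARID1B at E15.5 against 5.17 over all protein-coding genes with a promoter peak, 5.95 against 10.6 for FOXP1, and 4.36 against 6.40 for TCF7L2. At E18.5 it was 4.35 against 5.61, 5.71 against 8.65, and 5.04 against 6.57. Only Scn2a stood above the all-gene median in any list, and it did so for ARID1B at E15.5 and for FOXP1 at both stages.

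**Figure D2:**
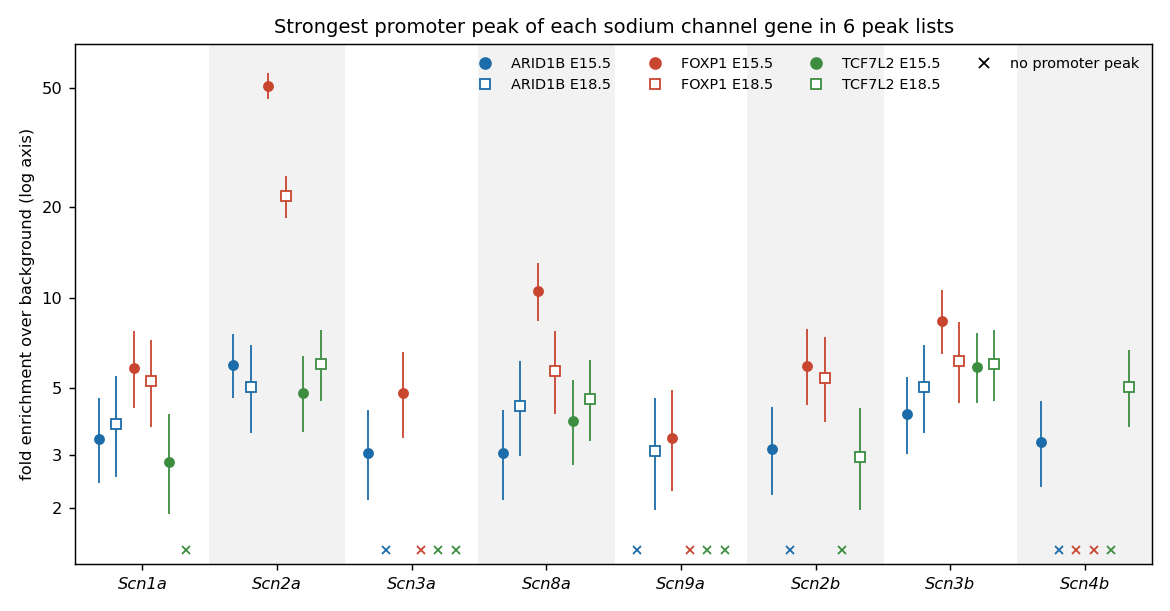
Fold enrichment of the strongest promoter peak of each sodium channel gene (log axis), for ARID1B, FOXP1, and TCF7L2 at E15.5 (filled circles) and E18.5 (open squares). Bars are 95% Poisson intervals on the reads over the summit, and crosses mark lists with no promoter peak. FOXP1 at Scn2a lies at 50.6 and 21.7, while all other values lie between 2.85 and 10.5.

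Scn2a (ENSMUSG00000075318.12, chr2:65620771-65767447, plus strand) has an outer start at 65620771 and inner starts at 65668686 and 65668765, from which the transcripts Scn2a-209 and Scn2a-205 begin. A further coding transcript, Scn2a-202, starts at 65670445, the first base of the first coding exon. At the inner start, 5 lists had a summit between 138 and 184 bp upstream of 65668686. Fold enrichment there was 5.97 for ARID1B at E15.5 (66 reads, 95% interval 4.64 to 7.57) and 5.05 at E18.5 (35 reads, 3.56 to 6.97). It was 4.83 for TCF7L2 at E15.5 (45 reads, 3.56 to 6.42) and 6.02 at E18.5 (54 reads, 4.55 to 7.82). FOXP1 at E18.5 reached 6.88 at the same place (45 reads, 5.09 to 9.12). These 5 intervals all overlap, and the summits of the 3 TRs at E18.5 lay within 46 bp of each other.

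FOXP1 had a much higher peak a little further into the gene. At E15.5 the peak ran from 65667815 to 65670826, 3012 bp, and covered the inner starts and the first coding exon. Its summit lay at 65669763 in the intron, 998 bp after the start of Scn2a-205 and 682 bp before that of Scn2a-202, the nearest start, with 399 reads and a fold enrichment of 50.6 (45.8 to 55.8). The list gives 1 summit for this peak, so the height over the inner starts themselves is not given. It ranked 3 among 64059 peaks, after a pair of peaks on the mitochondrial chromosome, and no summit of the list had over 400 reads. That number is the most a summit can hold if reads are extended to 200 bp and each position on a strand counts once. The peak call in the methods sets no option for duplicates, and keeping 1 read per position and strand is the default of MACS2, so 50.6 may be a lower bound, which its interval does not cover. At E18.5 FOXP1 had a separate peak from 65670356 to 65670813, with its summit at 65670583, 146 reads, and a fold enrichment of 21.7 (18.4 to 25.5), rank 47 of 24872. The summit lay 138 bp after the start of Scn2a-202, and the peak counts as a promoter peak through that start. It began 89 bp before the first coding exon (65670445 to 65670762, 318 bp) and ended 51 bp after it. The summits of both stages were 820 bp apart.

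Neither ARID1B nor TCF7L2 had a peak at the FOXP1 summits: their last peak base was 65669162, which is 601 bp before the FOXP1 summit of E15.5. Of the 28 coding exons of Scn2a, 1 had a FOXP1 peak at each stage. In place among all protein-coding genes with a FOXP1 promoter peak, Scn2a stood 10 of 13571 in the earlier list. Only the mitochondrial pair of peaks ranked above its own peak there, so every gene placed higher owed its place to that pair. In the later FOXP1 list Scn2a stood 32 of 12063. In the other lists it stood lower, above 67.9% of such genes for ARID1B at E15.5, 32.8% at E18.5, 20.7% for TCF7L2 at E15.5, and 39.3% at E18.5. Without the peaks that touch the first coding exon, the strongest FOXP1 peaks of Scn2a were 5.95 at E15.5 and 6.88 at E18.5.

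**Figure D3:**
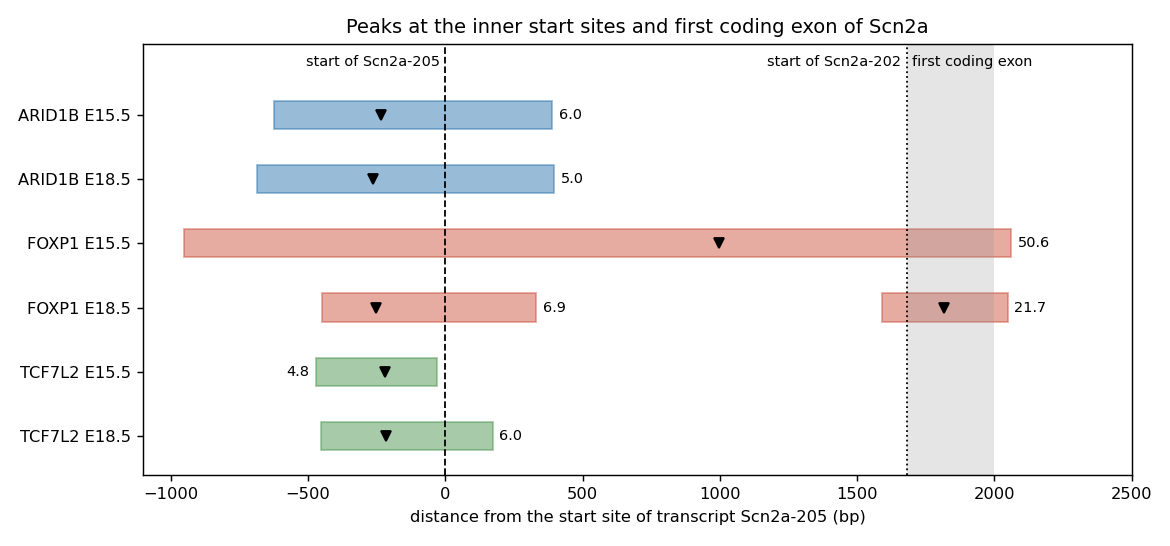
Peaks of the 6 lists at the inner start sites of Scn2a against the distance in bp from the start of transcript Scn2a-205 (dashed line), with the start of Scn2a-202 dotted. Bars are peaks, triangles are summits, numbers are fold enrichments, and the gray band is the first coding exon. ARID1B, TCF7L2, and FOXP1 at E18.5 share a summit upstream of the start, and only FOXP1 has a peak over the exon.

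At the outer start of Scn2a, 4 lists had a peak, with summits within 115 bp. Fold enrichment was 4.90 for ARID1B (54 reads), 5.95 for FOXP1 (46 reads), and 2.95 for TCF7L2 (27 reads) at E15.5, and 4.68 for FOXP1 at E18.5 (30 reads). At E18.5 ARID1B had its nearest peak downstream of the start, at 65621529 (3.65, 25 reads), and TCF7L2 had none. Another place lay in an intron, at 65690340 to 65691249, where ARID1B had 5.44 and 5.47 and FOXP1 4.18 and 6.0 in the order of the stages, and TCF7L2 had no peak.

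Scn1a (ENSMUSG00000064329.13, chr2:66270778-66440840, minus strand) had peaks of all 6 lists at the start of transcript Scn1a-203, at 66410064. Fold enrichment was 3.39 for ARID1B at E15.5 (37 reads) and 3.79 at E18.5 (26 reads). It was 5.82 for FOXP1 at E15.5 (45 reads) and 5.27 at E18.5 (34 reads), the highest of the 6. TCF7L2 was lowest, with 2.85 at both stages (26 and 25 reads). Its peak of E18.5 had the summit 733 bp downstream of the start and did not reach the promoter, whereas the summit of E15.5 lay 11 bp upstream. At the starts at the far end of the gene, 66440814 to 66440840, ARID1B alone had a peak, with 3.13 and 3.09 in stage order, and its summits lay in an intron.

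The highest peaks of the Scn1a window were not at a start of Scn1a. They lay at 66256003 to 66257633 beyond its 3′ end, at the promoter of the neighboring gene Ttc21b, which encodes a protein of intraflagellar transport in cilia. All 6 lists had this place, with 5.44 and 7.01 for ARID1B, 11.6 and 8.36 for FOXP1, and 6.29 and 7.55 for TCF7L2, the earlier stage first. In each list it exceeded the peak at the start of Scn1a-203. ARID1B also had peaks of its own at both stages in an intron (66337443 to 66337734, 3.30 and 3.93) and upstream of the gene (66458072 to 66458495, 4.90 and 3.51).

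Scn8a (ENSMUSG00000023033.14, chr15:100869858-101045938, plus strand) had peaks of every list at its first starts. ARID1B reached 3.04 at E15.5 (33 reads, 2.12 to 4.22) and 4.35 at E18.5 (30 reads, 2.98 to 6.15). FOXP1 reached 10.5 (82 reads, 8.38 to 13.0) and 5.71 (37 reads, 4.10 to 7.77), and TCF7L2 3.89 (36 reads, 2.77 to 5.34) and 4.60 (41 reads, 3.33 to 6.20). FOXP1 at E15.5 was thus the only value whose interval lay above those of the other 5. The window had 17 places with a peak, and 4 of them were found in all 6 lists, both of these promoter places, the coding exon shown above, and a place just past the 3′ end.

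The place at the coding exon of Scn8a had its summits within 199 bp in the 6 lists. The ARID1B summit of E15.5 lay just past the exon, in the intron, and the others lay in the exon. Fold enrichment was 3.66 and 3.65 for ARID1B, 5.32 and 5.27 for FOXP1, and 5.35 and 4.93 for TCF7L2 at E15.5 and E18.5. TCF7L2 had its highest Scn8a peak there at each stage, above its values at the promoter. The nearest annotated start lay 13854 bp upstream of the median summit. An intron place at 100909254 to 100910974 had the highest ARID1B peaks of the gene, 6.24 at E15.5 and 6.73 at E18.5. TCF7L2 (4.10 and 4.71) and FOXP1 at E15.5 (3.54) also had it, and FOXP1 at E18.5 did not. The place at the 3′ end, 101046019 to 101047416, overlaps the promoter of the predicted gene Gm47841 and had 3.39 to 4.24 in the 6 lists.

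Scn3a (ENSMUSG00000057182.14, chr2:65457118-65567627, minus strand), the neighbor of Scn2a, had no TCF7L2 peak at either stage and no FOXP1 peak at E18.5. At its start, ARID1B had 3.04 (33 reads) and FOXP1 4.81 (37 reads) at E15.5. ARID1B at E18.5 had a peak 363 bp downstream of the start (3.65, 25 reads) that did not reach the promoter. Scn9a (ENSMUSG00000075316.11, chr2:66480080-66634962, minus strand) likewise had no TCF7L2 peak and no FOXP1 peak at E18.5. Its promoter had FOXP1 at E15.5 (3.42, 26 reads) and ARID1B at E18.5 (3.09, 21 reads), which were among the lowest of the promoter values.

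The higher peaks of Scn9a lay inside the gene and were of ARID1B alone. At a coding exon, ARID1B had 5.08 (56 reads) at E15.5 and 5.19 (36 reads) at E18.5, with summits 55 bp apart. In an intron at 66530557 to 66530961, it had 5.35 (59 reads) and 6.17 (43 reads), with summits 14 bp apart. A further place of ARID1B alone, at 66598653 to 66598940, was lower, with 3.30 and 3.37. FOXP1 at E15.5 also had a peak past the 3′ end, with 3.80. The intron place at 66530557 to 66530961 overlaps the promoter of the non-coding gene Gm13627. Its summit window holds the forkhead core TGTTTAC, the only place at the 8 genes that does.

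Among the beta subunits, Scn3b (ENSMUSG00000049281.16, chr9:40269217-40291618, plus strand) had 1 place with peaks, its promoter, and all 6 lists had it. Fold enrichment was 4.10 for ARID1B at E15.5 (45 reads, 3.02 to 5.46) and 5.05 at E18.5 (35 reads). It was 8.35 for FOXP1 (65 reads, 6.48 to 10.6) and 6.15 (40 reads), and 5.88 for TCF7L2 (55 reads) and 6.02 (54 reads). ARID1B was lowest and FOXP1 highest at both stages, and at E18.5 the 3 intervals overlapped. The place was 2699 bp long, and TCF7L2 had 2 peaks in it at each stage.

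Scn2b (ENSMUSG00000070304.12, chr9:45117782-45130070, plus strand) had a peak at its start in 5 lists, with none of TCF7L2 at E15.5. Fold enrichment was 3.13 and 3.37 for ARID1B, 5.95 and 5.41 for FOXP1, and at the later stage TCF7L2 had 2.96. The ARID1B peak of E18.5 lay just downstream of the start and did not count as a promoter peak. An intron place at 45121777 to 45122636 had 3.93 and 4.35 for ARID1B, 6.20 for FOXP1 at E15.5, and 4.38 for TCF7L2 at E18.5. Scn4b (ENSMUSG00000046480.6, chr9:45138395-45154152, plus strand) had all 6 lists at its start. Its values were 3.30 and 3.09 for ARID1B, 4.43 and 5.56 for FOXP1, and 3.47 and 5.04 for TCF7L2. All 6 summits were 186 to 511 bp downstream of the start, and only the peaks of ARID1B at E15.5 and TCF7L2 at E18.5 reached back into the promoter.

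Peaks that overlapped at 1 stage were joined into loci. At E15.5 the sodium channel genes had 41 loci, of which 11 (26.8%) held all 3 TRs, against 30.1% of 83128 loci over the genome. At E18.5 they had 37, of which 10 (27.0%) held all 3, against 22.9% of 81092. Of loci that touched a promoter of any protein-coding gene, 9 of 13 held all 3 at E15.5 (71.8% over the genome) and 7 of 14 at E18.5 (62.9%). Away from such promoters it was 2 of 28 (18.8%) and 3 of 23 (11.1%). A promoter locus of all 3 TRs was found at Scn1a, Scn2a, Scn8a, Scn3b, and Scn4b at E15.5, 5 of the 8 genes, when 56.6% of protein-coding genes had one. At E18.5 it was found at Scn2a, Scn8a, Scn2b, Scn3b, and Scn4b, again 5, against 53.8%. A locus counts if any of its peaks touches the promoter. Scn4b at both stages and Scn2b at E18.5 are thus included although not each of their TRs does. With the 24872 strongest peaks of each list, the counts were 1 and 2 of 8, when 39.9% and 39.2% of protein-coding genes had such a locus.

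Over both stages together, the peaks fell at 45 places, of which 9 (20%) were in all 6 lists, against 17.7% of 93916 places over the genome. Another 15 were in 1 list, 33.3% against 32.3%. Of the 12 places that touched a promoter of a sodium channel gene, 6 were in all 6 lists, and of the 33 others, 3 were. With promoters of any protein-coding gene the numbers were 8 of 15, where 59.9% of such places over the genome were in all 6, and 1 of 30, where 7.07% were. ARID1B alone had 12 of the 45 places, and 6 of these at both stages, all 6 in the windows of Scn1a and Scn9a. Over the genome, ARID1B alone had 24391 of the 93916 places, and 10201 of them at both stages.

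**Figure D4:**
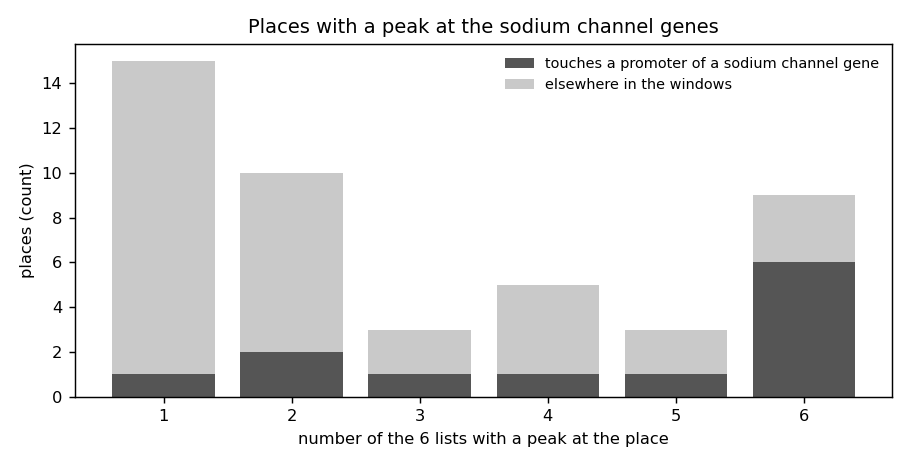
Number of places with a peak at the 8 sodium channel genes (y axis, count) against the number of lists, out of 6, that had a peak there. Dark bars are places that touch a promoter of a sodium channel gene, and light bars are the others. Of the 9 places in 6 lists, 6 touch a promoter, and of the 15 places in 1 list, 1 does.

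Between the stages, the fold enrichment of FOXP1 was lower at E18.5 at each of the 5 promoters with a peak at both. The 1 added to reads and background lowers folds more where the background is lower, 2.81 reads at E18.5 against 6.90 at E15.5. Without it, FOXP1 would be slightly higher at E18.5 at Scn1a and Scn2b, and the median below carries the same effect. The ratio of E18.5 to E15.5 was 0.430 at Scn2a, 0.543 at Scn8a, 0.736 at Scn3b, 0.904 at Scn1a, and 0.910 at Scn2b, beside a median of 0.783 over 12047 protein-coding genes. For Scn2a and Scn8a the counting intervals of the stages did not overlap, and for the other 3 they did. Relative to all genes, Scn2a and Scn8a stood in the lowest 3.17% and 5.46%, while Scn1a and Scn2b lay above the median. The other FOXP1 promoter peaks of Scn2a and Scn8a were near the median, with ratios of 0.786 at the outer start of Scn2a and 0.814 at the first promoter place of Scn8a, and their intervals overlapped. The value of Scn2a rests on a summit of 399 reads at E15.5, close to the possible limit of 400, and would be lower if that summit were capped. It also compares the broad peak of E15.5 with the exon peak of E18.5, whose summits differ.

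ARID1B ratios were 0.846 at Scn2a, 1.12 at Scn1a, 1.23 at Scn3b, and 1.43 at Scn8a, beside a median of 1.08 over 12303 genes. TCF7L2 ratios were 1.25 at Scn2a, 1.18 at Scn8a, and 1.02 at Scn3b, beside 1.06 over 12515 genes. At Scn8a, ARID1B had its strongest promoter peak at different places at each stage. Where peaks of both stages overlapped, its ratio was 1.57 at the first place and 1.06 at the second, and that of TCF7L2 was 0.872 and 1.18, so the direction for TCF7L2 depended on the place. All 7 pairs of counting intervals overlapped, so these ratios were not separated from 1 at this depth.

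The summit windows of 200 bp held few of the letters searched. CTTTGAT was in none of the 147 windows, where 1.83% to 2.58% of all windows of a list hold it. TGTTTAC was in 1 ARID1B window at each stage, the Scn9a intron, which is 1 of 32 and 1 of 31 (3.49% and 3.46% of all ARID1B windows), and in no FOXP1 window, where 2.89% of all FOXP1 windows at E15.5 and 2.28% at E18.5 hold it. Such shares of 33 and 14 windows come to less than 1 window. The E-box letters CANNTG were in 19 of 33 FOXP1 windows at E15.5 (68.6% of all) and in 5 of 14 at E18.5 (56.9% of all). For ARID1B they were in 21 of 32 (74.6%) and 20 of 31 (73.6%). TCF7L2 had them in 10 of 13 at E15.5 (60.8%), the one list above its background, and in 14 of 24 at E18.5 (65.2%). Both RE1 parts, 2 bases apart and with at most 2 mismatches, were found at the Scn8a coding exon and in a TCF7L2 window of Scn3b. That made 2 of 13 TCF7L2 windows at E15.5, where 1.70% of all hold it. The other lists had it in 1 window each, of 14 to 33, except ARID1B at E15.5, with 0 of 32, and 1.25% to 1.70% of all their windows hold it.

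In the 2000 bp before the first start, RE1 matches stood at Scn2a and Scn3a, 2 of 8, with 8.87% among 21951 promoters. TGTTTAC stood at Scn8a, Scn2b, and Scn4b (24.4% of all promoters), CTTTGAT at Scn2b and Scn3b (27.3%), and CANNTG at all 8 (21946 of all 21951 promoters). The sodium channel promoters spanned a wide range of CpG content. The observed-to-expected ratio went from 0.116 at Scn9a, below which 12.1% of promoters lay, to 0.412 at Scn3b, below which 75.0% lay, and the median of all promoters was 0.276.

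Among other sodium channel genes, Scn11a, of sensory neurons, had a promoter peak in 3 lists, with fold enrichments of 3.48 to 8.65. Scn4a of skeletal muscle, Scn10a of sensory neurons, and Scn7a had none. Scn7a lies next to Scn9a in the same cluster and had 1 peak in its whole window over the 6 lists.

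Of 8 genes for proteins that hold the channels at the axon initial segment or bind them there (Ank3, Sptbn4, Nfasc, Nrcam, and Fgf11 to Fgf14), 7 had a promoter peak in every list, where 51.8% of protein-coding genes had. Fgf14 lacked only FOXP1 at E18.5. As a check of the tissue, 7 of 8 cortical genes, among them Tbr1, had a promoter peak in every list, and Eomes lacked only FOXP1 at E18.5. Of 8 genes of other tissues, 7 were in the annotation under the name used, and 6 of these, among them Alb and Myh6, had no promoter peak in any list. The muscle gene Ckm had one in 5 lists. Over all protein-coding genes, 55% to 61.8% had a promoter peak in a given list. The share with none in any list was not worked out.

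The genes whose promoter values over the 6 lists were nearest to those of Scn2a, by Euclidean distance of log2 fold enrichment with 0 where there was no peak, were Rrp15 (distance 0.83), Washc2 (0.93), and Commd4 (0.98). Their FOXP1 values were 41.6 and 28.2 for Rrp15, 31.3 and 26.6 for Washc2, and 29.2 and 29.8 for Commd4 at E15.5 and E18.5. ARID1B stood at 4.73 to 6.73 and TCF7L2 at 4.94 to 7.23 in these 3 genes.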

How the data were processed

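The authors used bwa mem to align 50-bp single reads to mm10 (GRCm38), filtered them on mapping quality with SAMtools, and called peaks with MACS2 against matched input, with reads extended to 200 bp and no local background. Their processing notes name BWA 0.7.15, MACS2 2.2.7, and deepTools 3.4.3. Their call sets no option for duplicates, for which MACS2 by default keeps 1 read per position and strand. The deposited lists hold fold enrichment (a ratio), −log10 of the p-value, and the position of the summit, the values the authors obtained from MACS2. The −log10 q-value and the score were not used.

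Peaks were joined to GENCODE vM21 with an overlap of at least 1 base, in Python 3.11.15 with NumPy 2.4.6 and SciPy 1.17.1. The search for the background behind fold enrichment and p-value reproduced all pairs of every list to within 0.01 in log10 p, and was tested on simulated data. Genome positions count from 1. Named genes were the 8 members, other family genes, the partners and tissue genes by count, neighbors whose promoter held a peak, and the 3 genes nearest to Scn2a. Some family genes and sequences are not reported here. No test was run, since each TR and stage has 1 list. The members and gene lists were chosen with earlier results of these data known.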

Additional observations from a re-analysis of the deposited data

Results flagged for a closer look

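At 4 promoters, 1 TR was higher at E18.5 than at E15.5 while another was lower. The difference was not tested, since each value comes from 1 list per stage, and the counting intervals of the stages were apart only for FOXP1 at Scn2a and Scn8a. FOXP1 was the lower TR in all but 1 of these pairs, and its median over all genes was lower at E18.5 too (log2 ratio −0.35, against 0.11 for ARID1B and 0.08 for TCF7L2). At Scn2a, the log2 ratio of FOXP1 minus that of TCF7L2 was −1.54, and that of ARID1B minus TCF7L2 was −0.56. The FOXP1 summits used there lay further into the gene than those of ARID1B and TCF7L2. At the outer start of Scn2a, the FOXP1 log2 ratio was −0.35, with overlapping intervals. At Scn8a, ARID1B minus FOXP1 was 1.40, and FOXP1 minus TCF7L2 was −1.12. These set peaks of different Scn8a promoter places side by side, and at the first place TCF7L2 was lower at E18.5 too (log2 ratio −0.20, and −0.30 for FOXP1). At Scn3b, ARID1B minus FOXP1 was 0.74, and FOXP1 minus TCF7L2 was −0.48. At Scn1a, ARID1B minus FOXP1 was 0.30. Without the 1 added to reads and background, FOXP1 at Scn1a would not be lower at E18.5. Relative to the median of each TR over all genes, the opposite signs were gone at Scn1a (0.04 for ARID1B and 0.21 for FOXP1) and between FOXP1 and TCF7L2 at Scn3b (−0.09 and −0.05).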

How the results depend on the processing

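With only peaks of −log10 p of at least 15, the peaks at the genes fell to 9, 12, and 3 for ARID1B, FOXP1, and TCF7L2 in the lists of E15.5 and 7, 3, and 7 in those of E18.5. In the same order, the whole lists of the earlier stage shrank from 71411, 64059, and 32992 peaks to 27462, 25571, and 12672. Those of the later stage shrank from 68447, 24872, and 53173 to 25052, 9998, and 16559. The fall was thus shared by the whole lists, and a difference from them was not tested. Under this cut the genes with a promoter peak numbered 1 for ARID1B and 1 for TCF7L2 (44.6% of all genes) at E15.5. At E18.5 they numbered 2 for ARID1B and 1 for FOXP1 (41.7%). Promoter loci of all 3 TRs were left at 0 genes (E15.5) and 1 gene (E18.5), and loci of all 3 TRs at 1 and 2. For ARID1B and for these loci, the share over all genes or the genome at this cut was not worked out. Their fall thus cannot be told apart from that of the whole lists. With the 24872 strongest peaks of each list, the peaks were 9, 12, and 8 in the E15.5 lists and 7, 14, and 10 in the E18.5 lists, so that FOXP1 no longer had fewer at E18.5. ARID1B promoter genes then numbered 1 and 2, genes with a promoter locus of all 3 TRs 1 and 2, and loci of all 3 TRs 2 and 3. For these loci the share over the genome under this setting was not worked out. With 50 kb on each side, TCF7L2 at E18.5 had 38 peaks, and with 500 bp downstream added to the promoter, ARID1B at E18.5 had a promoter peak at 8 genes, since its peaks at Scn3a, Scn2b, and Scn4b lay past the start. The other counts, under these settings and under gene bodies alone, promoters of 1000 bp, coding transcripts alone, or an overlap of 50% of the shorter peak, stayed within 1.5 times. Ranking by p in place of fold enrichment kept all 42 ranks within 1.5 times. No paired analysis was possible because each TR and stage has 1 list. For the same reason no replicate could be left out. Leaving out the FOXP1 peaks at the first coding exon of Scn2a was chosen after seeing the data.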

Other observations

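Beyond the windows, the place nearest to Scn3b lay 26.5 kb upstream, at chr9:40241189-40242728, and had peaks in all 6 lists with fold enrichments of 3.39 to 7.15. It overlaps no annotated promoter. On chromosome 15, a place 31.8 kb past the end of Scn8a, at the promoter of Fignl2, was in all 6 lists as well, with 2.95 to 4.63. Near Scn3a, a place 41.5 kb past the gene was in 5 lists, with 2.63 to 6.88. Within the next 30 kb on each side of Scn2a there were 2 places, each in 1 list, with 4.68 and 3.37.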
